A study of Mus musculus with 24 samples.

Results

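Of the 32486 TEAD peaks called in the liver of tet-YAP mice, 1802 (5.55%) had no counterpart in the TEAD lists of wild-type or tet-Myc livers but were found again in the tet-Myc/YAP liver. These 1802 genomic sites, gained in both livers that expressed the YAP transgene, are described here. They were chosen by the presence or absence of an overlapping TEAD peak (1 bp or more) in the 4 TEAD lists, so their TEAD values are given as a description. Only the other factors and the histone marks were not used in the selection. Their libraries may share a liver with the TEAD libraries, as described below, so they are not strictly independent of it. The livers came from mice carrying R26-rtTA, the reverse tetracycline transactivator driven from the broadly active Rosa26 locus, either without a further transgene (wild-type), with tet-Myc, with tet-YAP (encoding the activated S127A form of YAP) or with both (tet-Myc/YAP), and transgenes were induced with doxycycline for 2 days. All groups, controls included, thus shared the transactivator. No source used here gives the ages of the mice or says whether animals were pooled for a library. Chromatin immunoprecipitation with sequencing (ChIP-seq) provided 1 library per antibody and genotype: TEAD, Myc, RNA polymerase II, H3K4me3 and H3K27ac in all 4 genotypes, YAP in the YAP livers, and H3K4me1 in wild-type. YAP chromatin was fixed with a protein crosslinker (DSG) followed by formaldehyde, all other chromatin with formaldehyde alone.

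TEAD proteins are the transcription factors through which YAP, a coactivator that cannot bind DNA alone, reaches chromatin. The Hippo kinase cascade phosphorylates YAP, on S127 among other residues, and thereby retains it in the cytoplasm; in the S127A mutant that residue cannot be phosphorylated, and the protein enters the nucleus and joins TEAD on enhancers and promoters. In liver this axis is known for controlling organ size, hepatocyte proliferation and the balance between hepatocyte and biliary identity. H3K27ac marks active enhancers and promoters, H3K4me1 enhancers and promoter flanks, and H3K4me3 promoters, whereas RNA polymerase II reports on transcription and Myc on binding at E-box elements and open promoters.

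The 4 TEAD libraries were of like depth (31.6 to 33.1 M tags), while their lists differed in length, with 33417 peaks in the wild-type liver, 44220 in tet-Myc, 32486 in the tet-YAP liver and 52392 in tet-Myc/YAP. A site missing from a list had not passed the caller's cutoff there, and its signal in that library was not listed. Since each group was 1 library, no p-value was computed, and the 95% Wilson intervals below cover counting error only and not variation between livers. For the tet-YAP YAP list and the wild-type Myc list, the caller had estimated fragments of 56 and 51 bp, about the length of a tag, and those lists held short peaks (median 98 and 81 bp). In the headers, the tet-YAP lists of TEAD, Myc, RNA polymerase II, H3K4me3 and H3K27ac carried a common number and the YAP list another, and all 6 wild-type lists carried a common number too. What these numbers stand for is not stated, so the TEAD and H3K27ac profiles of tet-YAP may come from a single liver, and likewise those of wild-type. Bulk liver was used, and a change in the share of a cell type cannot be told apart from a change within cells. The labelled tissue was not checked against marker genes, as no annotation of the mm9 build of the lists was at hand.

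Most of the new sites were weak TEAD peaks. Their fold enrichment over the control in tet-YAP had a median of 5.3 (quartiles 4.62 and 6.09, maximum 55), against 6.28 over all tet-YAP TEAD peaks and 7 at the 22392 tet-YAP peaks present in all 4 lists. The summit pileup, the number of extended tags stacked at the highest point, ranged from 19 to 279 with a median of 28. Only 57 of the 1802 sites (3.16%) reached a fold enrichment of 10, and 141 (7.82%) a −log10 q of 20, where q is the caller's false discovery rate. By comparison, the 1244 TEAD peaks found in the tet-YAP liver and in no other liver contained 7 (0.563%) and 34 (2.73%) such peaks. The new sites were narrow as well, with a median of 386 bp against 521 bp for all tet-YAP peaks. Arranged by −log10 q, 1013 sites lay under 10, 648 from 10 to under 20, 125 from 20 to under 50, and 16 at 50 or more. These classes are used throughout, since the weak and the strong sites sat in different chromatin.

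At the level of single sites, the edge of the selection was sharp only in a formal sense. The 3 selected sites closest to a wild-type or tet-Myc TEAD peak (chr9:15084752-15085053, chr2:129024476-129024839 and chr13:96316051-96316352, mm9) were separated from it by 1, 5 and 6 bp and had fold enrichments of 4.52, 5.1 and 4.71. The 3 tet-YAP peaks with the smallest overlap that were therefore not selected (chr13:64226111-64226407, chr1:71934804-71935189 and chr8:5095293-5095613) shared 1, 7 and 9 bp with such a peak and had fold enrichments of 4.83, 5.27 and 4. Sites on both sides of the edge thus had like enrichment, and 484 of the 1802 (26.9%) had a wild-type or tet-Myc TEAD peak within 1 kb.

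In the tet-Myc/YAP liver the same sites were mostly taller. The median pileup was 28 in the tet-YAP liver and 37 in tet-Myc/YAP, the ratio had a median of 1.3, and 1419 sites (78.7%) were higher in tet-Myc/YAP. For peaks present in all 4 lists these values were 39 and 68, 1.73 and 93.5%. As the TEAD lists chose both sets, nothing is read from the comparison. Summits called independently in the 2 livers fell a median of 63 bp apart, and 1160 sites (64.4%) had summits within 100 bp of each other. Among the 141 sites of −log10 q of 20 or more the summit distance was 28 bp and 130 (92.2%) lay within 100 bp, compared with 82.4% for equally strong peaks of all 4 lists.

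**Figure D1:**
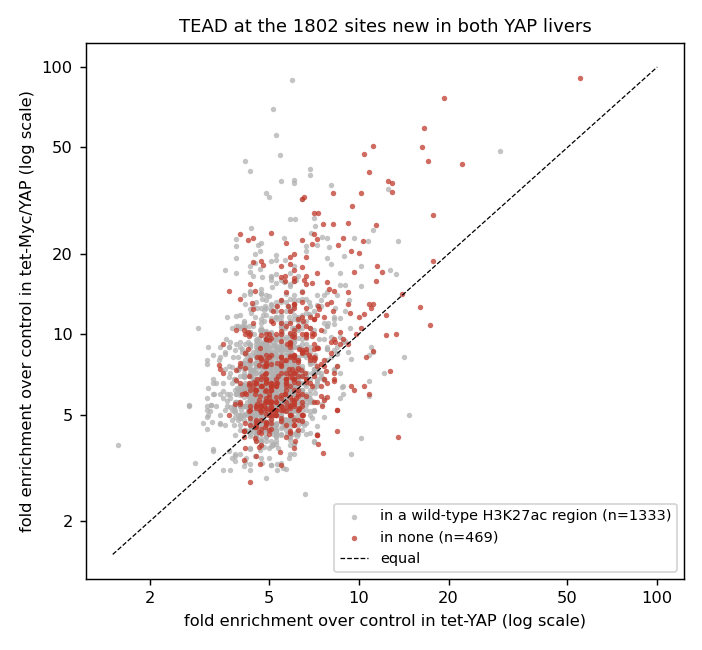
TEAD fold enrichment over the control at each of the 1802 new sites in the tet-YAP liver (x axis, log scale) and tet-Myc/YAP (y axis, log scale), in red where the site lay in no wild-type H3K27ac region and in grey where it lay in one. Most points crowd around the medians of 5.3 and 6.78, and the points farthest to the right are mainly red.

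New sites were seldom isolated. The nearest wild-type or tet-Myc TEAD peak was a median of 3074 bp away, 1359 sites (75.4%) had one within 10 kb, and 1750 (97.1%) within 100 kb. Distance increased with strength: its median was 2266 bp for sites of −log10 q under 10, 3744 bp from 10 to under 20, 7815 bp from 20 to under 50, and 20396 bp for the 16 strongest. The 1244 peaks of tet-YAP alone showed the same order at larger distances (5204, 7786 and 27814 bp in the first 3 classes). The new sites were spread over 20 chromosomes, making up between 4.62% (chr10) and 7.12% (chr12) of each one's tet-YAP TEAD peaks, and 220 (12.2%) had another new site within 10 kb.

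**Figure D2:**
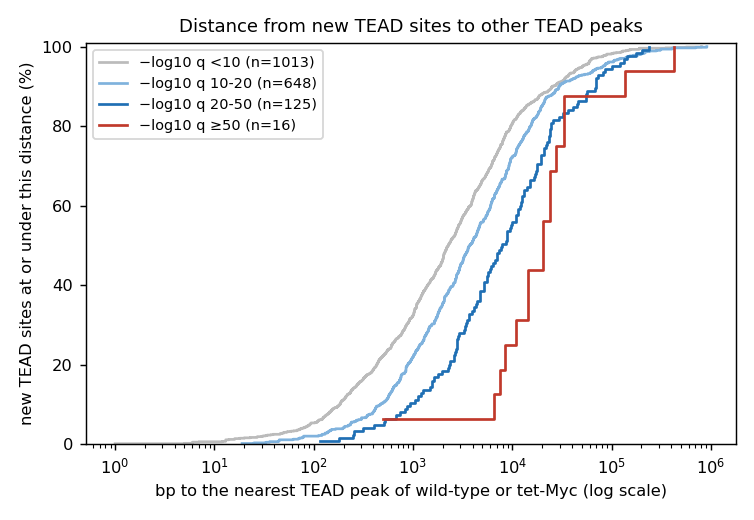
Cumulative share of new TEAD sites (y axis, percent) by distance to the nearest TEAD peak of wild-type or tet-Myc (x axis, bp, log scale), one line per class of −log10 q. The lines shift to the right with strength, from a median of 2266 bp in the weakest class to 20396 bp in the strongest.

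The chromatin that received the new TEAD peaks was largely active already in the wild-type liver. By the wild-type marks, 678 sites (37.6%, interval 35.4 to 39.9) were promoter-like, that is inside an H3K4me3 region, 796 (44.2%, 41.9 to 46.5) were distal, with H3K4me1 or H3K27ac but no H3K4me3, and 328 (18.2%, 16.5 to 20.1) carried none of the 3 marks. Over all tet-YAP TEAD peaks these shares were 54.3%, 35.1% and 10.5%. The make-up was not particular to the new sites: the 4241 tet-YAP TEAD peaks absent from wild-type but present in both other lists had 37%, 43.5% and 19.4%, and the peaks of tet-YAP alone 29.6%, 44.5% and 25.9%. H3K4me1 was present in wild-type at 1361 sites (75.5%), against 82.1% over all peaks. Unmarked sites had somewhat higher TEAD enrichment (median 6.09-fold) than distal (5.3) and promoter-like ones (5.1).

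H3K27ac covered 1333 of the new sites in the wild-type liver (74%, 71.9 to 75.9), 1318 in tet-Myc (73.1%, 71 to 75.1), 1449 in the tet-YAP liver (80.4%, 78.5 to 82.2) and 1426 in tet-Myc/YAP (79.1%, 77.2 to 80.9). Both YAP livers thus exceeded both others, without overlap of the intervals. These intervals treat sites as independent, although the same sites were scored in every liver. Sites also shared regions: of the 1274 tet-YAP H3K27ac regions with a new site, 138 held 2 or more. Over all tet-YAP TEAD peaks the 4 shares lay closer together, at 81.2%, 83.1%, 84.1% and 83.4%. The H3K27ac lists themselves held 17821, 20524, 20347 and 21854 regions in that order, so wild-type had the shortest list and tet-Myc a slightly longer one than tet-YAP. At the TEAD peaks of tet-YAP alone the mark was most frequent in their own liver, with 73.1% there against 65% in the wild-type liver, 59.1% in tet-Myc and 56.9% in tet-Myc/YAP. At single sites, 1208 (67%) were inside H3K27ac regions of all 4 livers and 250 (13.9%) in none, against 75.5% and 10.6% over all tet-YAP TEAD peaks. A further 150 had H3K27ac in neither wild-type nor tet-Myc but in at least 1 YAP liver, of which 53 had it in both, 43 in the tet-YAP liver alone and 54 in tet-Myc/YAP alone. The pattern of both YAP livers and no other was found at 2.94% of new sites and 1.04% of all tet-YAP TEAD peaks, that of tet-YAP alone at 2.39% and 1.19%, and that of tet-Myc/YAP alone at 3% and 1.24%. The TEAD peaks absent from wild-type alone had these 3 patterns at 1.2%, 1.37% and 3.07%. Those of tet-YAP alone had them at 1.05%, 6.59% and 0.402%. H3K27ac in a single YAP liver was therefore not particular to the new sites.

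Relative to wild-type, H3K27ac was gained in tet-YAP at 144 new sites (7.99%, 6.83 to 9.33, background 5.05%) and lost at 28 (1.55%, against 2.14% over all peaks). In tet-Myc/YAP it was gained at 165 (9.16%, background 5.98%) and lost at 72 (4%, against 3.84%). In tet-Myc it was gained at 69 (3.83%, background 4.69%) and lost at 84 (4.66%, against 2.8%). The new sites gained the mark more often than all TEAD peaks in the YAP livers and lost it more often in tet-Myc. The peaks absent from wild-type alone gained it at 7.29% in tet-YAP, 10.8% in tet-Myc/YAP and 7.92% in tet-Myc, so the gain in the YAP livers was not particular to the new sites. Only a peak without wild-type H3K27ac can gain it. Of the 469 such new sites, 30.7% (26.7 to 35) had it in tet-YAP, 35.2% (31 to 39.6) in the tet-Myc/YAP liver and 14.7% (11.8 to 18.2) in tet-Myc, against 26.9%, 31.8% and 25% of the 6103 such peaks in all. On this base the widest difference from all TEAD peaks was the low share in tet-Myc. The 435 such peaks of tet-YAP alone had 8.97% in tet-Myc, so this low share was not particular to the new sites. Both sets were chosen for having no TEAD peak in tet-Myc, and how far this selection bears on the low share was not tested. Of the 144 sites gained in tet-YAP, 114 (79.2%) lay in an H3K27ac region that met no wild-type region, and 30 in the extension of one. Seen from the mark, 460 tet-YAP H3K27ac regions were found in both YAP livers and in neither of the others, and 40 of them (8.7%, 6.45 to 11.6) contained a new TEAD site. This compares with 1116 of the 15873 regions common to all 4 livers (7.03%, 6.64 to 7.44), which were wider (median 8468 against 4769 bp). The intervals overlapped, and most new H3K27ac regions had none of the new TEAD sites.

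The strong sites differed from the weak ones in their H3K27ac. In the class of −log10 q under 10, the H3K27ac shares were 82.2% and 83.2% in wild-type and tet-Myc, then 85.6% and 85.1% in the tet-YAP and tet-Myc/YAP livers. In the same order they were 67.9%, 65.3%, 75.2% and 73% in the class from 10 to under 20, and 45.6%, 40.8%, 67.2% and 64% from 20 to under 50. Among the 16 strongest sites, 3 had H3K27ac in the wild-type liver, 1 in tet-Myc, 11 in the tet-YAP liver and 11 in tet-Myc/YAP. The drop with strength was thus steep in wild-type and tet-Myc and shallow in the YAP livers. At the peaks of tet-YAP alone, the first 3 classes had 68.5%, 58.3% and 36.4% in wild-type and 63.6%, 50.3% and 21.2% in tet-Myc. Their own liver had 74.2%, 71% and 60.6%, and tet-Myc/YAP 61%, 48.1% and 30.3%. The drop in wild-type and tet-Myc was thus not particular to the new sites. Taking all 141 sites of −log10 q of 20 or more, H3K27ac was present at 60 in the wild-type liver (42.6%, 34.7 to 50.8), 52 in tet-Myc (36.9%, 29.4 to 45.1), 95 in the tet-YAP liver (67.4%, 59.3 to 74.6) and 91 in tet-Myc/YAP (64.5%, 56.4 to 72). For all 9901 tet-YAP TEAD peaks of that strength the shares were 83.3%, 85.6%, 88.1% and 88.4%, so strong TEAD peaks in general did not lack the mark in wild-type. Within these 141 sites H3K27ac was gained over wild-type at 37 in tet-YAP (26.2%, 19.7 to 34.1, background 6.14%), 38 in tet-Myc/YAP (27%, background 7.72%) and 3 in tet-Myc (2.13%, background 4.67%). Because fewer of them had the mark in wild-type, more of them could gain it. Of the 81 without wild-type H3K27ac, 45.7% (35.3 to 56.5) had it in tet-YAP, 46.9% (36.4 to 57.7) in the tet-Myc/YAP liver and 3.7% (1.27 to 10.3) in tet-Myc. Among the 1657 equally strong TEAD peaks without wild-type H3K27ac these shares were 36.7%, 46.1% and 27.9%. On this base the strong new sites were near other strong peaks in the YAP livers and far below them in tet-Myc. The 22 such peaks of tet-YAP alone were low in tet-Myc as well, at 4.55% (0.807 to 21.8). Both these sets were chosen for having no TEAD peak in tet-Myc, whereas 1333 of the 1657 lay in all 4 lists. How far that selection bears on the tet-Myc shares was not tested.

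A second comparison used the 4241 tet-YAP TEAD peaks absent from wild-type alone. At the 458 of −log10 q of 20 or more, H3K27ac was found at 59% (54.4 to 63.4) in the wild-type liver, 64.6% (60.1 to 68.9) in tet-Myc, 69% (64.6 to 73.1) in the tet-YAP liver and 77.1% (73 to 80.7) in tet-Myc/YAP. Here H3K27ac was gained over wild-type at 8.73% in tet-Myc, 12.2% in the tet-YAP liver and 21% in tet-Myc/YAP, and the wild-type and tet-Myc shares were above those of the new sites without overlap of the intervals, while the tet-YAP shares of 69% and 67.4% were close. The set differed from the new sites in wild-type as well as in tet-Myc, although neither set had a wild-type TEAD peak. When strength was read from the tet-Myc/YAP peak, tet-Myc/YAP was close to wild-type in the 2 weaker classes (77.8% and 77.3% under a −log10 q of 10, 78.5% and 78.1% from 10 to under 20). At the 187 new sites whose tet-Myc/YAP peak had a −log10 q of 50 or more, H3K27ac covered 57.2% in both wild-type and tet-Myc, 69% in the tet-YAP liver and 82.9% in tet-Myc/YAP, where the intervals of tet-YAP (62 to 75.2) and wild-type (50.1 to 64.1) overlapped. The peaks absent from wild-type alone had 60.1%, 69.8%, 68.5% and 79.3% in the same class.

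**Figure D3:**
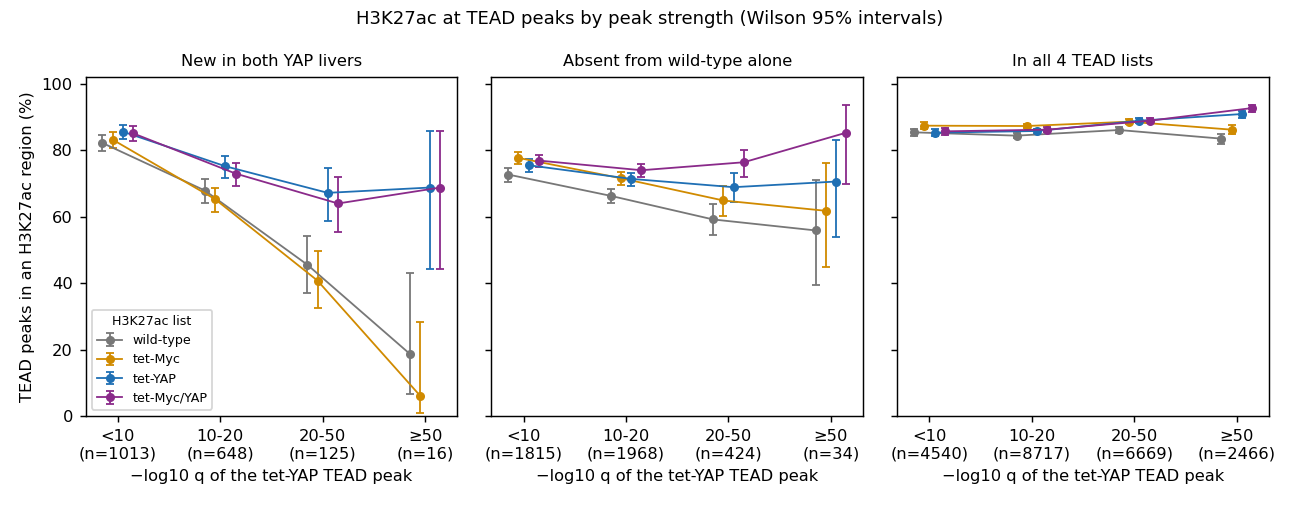
Share of tet-YAP TEAD peaks inside an H3K27ac region (y axis, percent) by −log10 q of the peak (x axis, 4 classes with their n), one line per H3K27ac list, for the new sites, for the peaks absent from wild-type alone and for the peaks of all 4 lists. Bars are Wilson 95% intervals. At the new sites wild-type and tet-Myc fall to 18.8% and 6.25% in the strongest class (16 sites) while both YAP livers stay at 68.8%, and in the right panel all lines stay high.

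The sites without any wild-type mark lacked wild-type H3K27ac by definition. Of these 328 unmarked sites, 16 (4.88%, 3.02 to 7.78) had H3K27ac in tet-Myc, 71 (21.6%, 17.5 to 26.4) in the tet-YAP liver and 90 (27.4%, 22.9 to 32.5) in tet-Myc/YAP. At the unmarked peaks of all 4 TEAD lists the shares were 11%, 15.3% and 19.6%, and at those of tet-YAP alone 2.8%, 19.9% and 4.35%. At the new sites and at those of tet-YAP alone, H3K27ac was thus most frequent in the livers where the TEAD peak had been called. At the unmarked peaks absent from wild-type alone the shares were 12.6%, 13.1% and 22.7%. The order tet-Myc, tet-YAP, tet-Myc/YAP was therefore not particular to the new sites, but their spread was wider than at the peaks of all 4 lists. Another set of new sites, 141 with H3K4me1 or H3K4me3 but no H3K27ac in wild-type, had it more often, at 37.6% in tet-Myc, 51.8% in the tet-YAP liver and 53.2% in tet-Myc/YAP, against 44.5%, 41% and 48.7% of all such TEAD peaks. The unmarked share climbed with strength, from 10.6% under a −log10 q of 10 to 23.6%, 44% and 81.2% in the following classes, and promoter-like sites dwindled from 45.6% to 31.8%, 8% and none. At the peaks absent from wild-type alone, the unmarked shares were 15.8%, 20.8%, 27.1% and 35.3%, and the promoter-like shares 44.2%, 34.2%, 21.7% and 8.82%. Peaks of tet-YAP alone were unmarked at 22.2%, 32.5% and 60.6% in the first 3 classes. The direction was thus not particular to the new sites. Among the 68 unmarked sites of −log10 q of 20 or more, 44 (64.7%, 52.8 to 75) had H3K27ac in at least 1 YAP liver and 1 had it in tet-Myc. At the 644 equally strong unmarked peaks of all 4 lists, 37.1% (33.5 to 40.9) had it in a YAP liver and 11.5% in tet-Myc. At the 127 such peaks absent from wild-type alone these shares were 45.7% (37.3 to 54.3) and 11.8%. The interval for a YAP liver there overlapped that of the new sites. RNA polymerase II was rare at these 68 sites, with 1 in the tet-YAP liver and 4 in tet-Myc/YAP, and H3K4me3 was called at none in the tet-YAP liver and 2 in tet-Myc/YAP. Both were infrequent at the 644 peaks as well (5.12% and 9.78% for the polymerase, 0.776% and 5.28% for H3K4me3). At the 796 distal sites, H3K27ac was found at 85.7% in the wild-type liver, 81% in tet-Myc, 90.1% in the tet-YAP liver and 85.2% in tet-Myc/YAP. Over all distal TEAD peaks these shares were 83.7%, 83.5%, 84.5% and 81.5%. At the distal new sites tet-Myc/YAP was thus not above wild-type. At the promoter-like sites H3K27ac was between 96% and 97.5% in every liver, near the 95.4% to 97.1% over all promoter-like TEAD peaks.

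The 10 strongest new sites show this pattern one by one. In 9 of them no mark was called in wild-type, H3K27ac was present in tet-YAP at 6 and in tet-Myc/YAP at 8, and none had it in tet-Myc. The strongest, chr16:89346877-89347774, had a TEAD pileup of 279 in the tet-YAP liver (55-fold over the control, −log10 q 363) and 453 in tet-Myc/YAP (90.6-fold), with summits 6 bp apart. The closest TEAD peak of wild-type or tet-Myc was 426399 bp away, and tet-Myc/YAP alone had an H3K27ac region and a YAP peak there (5.77-fold). It was the tallest of the new sites.

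The next site, chr14:69422253-69423066, had pileups of 151 (29.8-fold) and 243 (48.7-fold), and is the exception in carrying H3K27ac in wild-type as well as in both YAP livers, though not in tet-Myc. It also had a YAP peak in tet-Myc/YAP (7.1-fold). The third, chr8:82130369-82131181, reached 112 (22.2-fold) and 216 (43.3-fold). It had H3K27ac in both YAP livers only, and was alone among the 10 in gaining H3K4me3, RNA polymerase II and Myc peaks, all of them in tet-Myc/YAP. This was the only one of the 10 with signs of a promoter in any liver.

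At chr16:69790815-69791401 the pileup rose from 115 in tet-YAP to 383 in tet-Myc/YAP, and at chr1:100043681-100044394 from 98 to 294. Both had H3K27ac in tet-Myc/YAP only, as did chr13:28725581-28726182, where the pileup was 82 and 251. Among the 10, these 3 sites had the largest ratios of TEAD height between the 2 YAP livers, and the liver with the taller TEAD peak was the one with H3K27ac. In contrast, chr7:54146340-54147062 had nearly equal pileups of 89 and 93 and had H3K27ac in tet-YAP only. The site chr6:37680475-37681128, with 86 and 222, had H3K27ac in tet-YAP only and was the only one of the 10 with a YAP peak in that liver (18.6-fold). TEAD height and H3K27ac therefore did not go together at every site.

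H3K27ac in both YAP livers and in neither of the others marked chr10:30080515-30081088 (pileup 89 in the tet-YAP liver and 167 in tet-Myc/YAP) and chr1:133667153-133667722 (87 and 86), in addition to the chromosome 8 site. The following members of that pattern by TEAD strength were chr11:51891306-51891938 (81 and 138), chr15:94506789-94507300 (70 and 70) and chr14:48445064-48445583 (65 and 170). All 6 lay in chromatin unmarked in wild-type, between 7536 and 86038 bp from the nearest TEAD peak of wild-type or tet-Myc, and none had a YAP peak in either list.

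**Figure D4:**
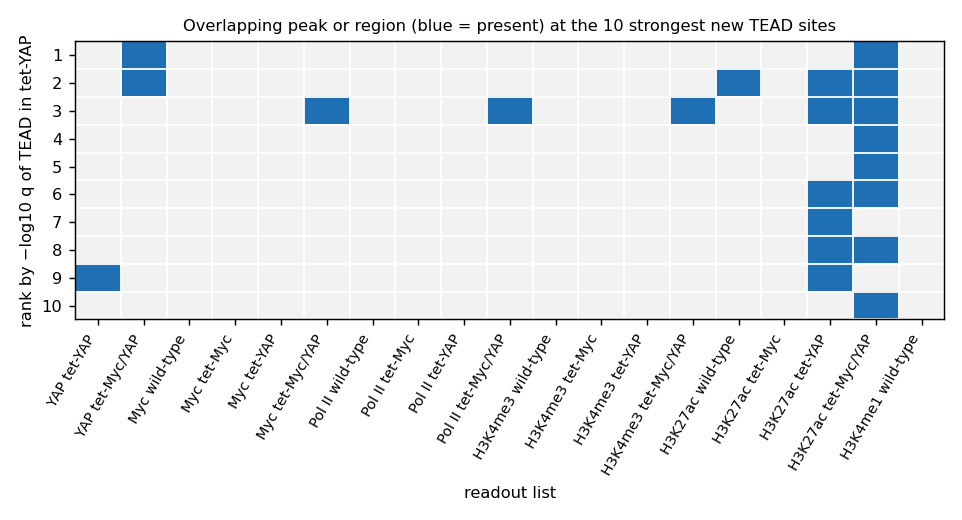
Presence (blue) of an overlapping peak or region of each of the 19 other lists (x axis) at the 10 strongest new TEAD sites, ranked by −log10 q in tet-YAP (y axis). The H3K27ac columns of tet-YAP (6 of 10) and tet-Myc/YAP (8 of 10) are filled, those of wild-type (1) and tet-Myc (0) almost empty.

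YAP itself was rarely called at the new sites. In tet-YAP, 7 of the 1802 (0.388%, 0.188 to 0.8) had a YAP peak, against 3.16% over all tet-YAP TEAD peaks. In tet-Myc/YAP, 180 (9.99%, 8.69 to 11.5) had one, against 31.7%. The peaks of tet-YAP alone had 0.402% and 5.47%, and those absent from wild-type alone 0.707% and 12.1%. Low YAP shares were thus not particular to the new sites. The 2 YAP lists differed in size (1328 and 11719 peaks) and in estimated fragment length, so their shares are not comparable with each other. By TEAD strength, YAP was found in the tet-YAP liver at 0.296% of new sites and 0.322% of all TEAD peaks under a −log10 q of 10, and the values parted in stronger classes, with 3 of 141 new sites (2.13%) and 8.61% of all tet-YAP TEAD peaks at 20 or more. A single new site had a YAP peak in both livers.

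The tet-YAP YAP peaks at new sites were small, with pileups of 9 to 14. The highest was at chr11:32122353-32122681 (pileup 14, 19.9-fold), a promoter-like site with H3K27ac and H3K4me3 in all 4 livers. By contrast, chr5:121606957-121607281 (13, 18.6-fold) had neither mark in any liver. Apart from the chromosome 6 site above, chr7:31387566-31388079 (11, 15.9-fold) and chr10:128078861-128079309 (10, 14.6-fold) were unmarked in wild-type and had H3K27ac in both YAP livers only. There, TEAD pileups increased from 56 and 52 in tet-YAP to 180 and 236 in tet-Myc/YAP. The sixth, chr15:96859590-96860177 (10, 10.9-fold), was promoter-like and was the site with YAP in both livers.

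Where YAP was called in tet-Myc/YAP, Myc usually was too. Of the 180 sites with YAP, 156 (86.7%, 80.9 to 90.9, against 92.3% over all TEAD peaks) also had a Myc peak in that liver, and YAP was present at 21.7% (18.8 to 24.9) of the 719 new sites with Myc and at 2.22% (1.49 to 3.28) of the 1083 without. The direction was the same over all tet-YAP TEAD peaks, at 47% and 6.49%. It was kept at promoter-like sites, with 28.1% and 2.54%, against 53.5% and 9.4% over all promoter-like TEAD peaks. Distal sites had 12.1% and 2.92%, against 32% and 7.02%. At unmarked sites YAP peaks were few, at 2 of 29 with Myc and 2 of 299 without. YAP in tet-Myc/YAP was found at 19.2% of promoter-like, 5.78% of distal and 1.22% of unmarked new sites, with the same order over all TEAD peaks (45.3%, 19% and 3.74%).

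Myc was called at 14 of the new sites in the wild-type liver (0.777%, background 7.24%), 642 in tet-Myc (35.6%, background 61.5%), 250 in the tet-YAP liver (13.9%, background 29.7%) and 719 in tet-Myc/YAP (39.9%, 37.7 to 42.2, background 62.2%). Myc peaks were thus less common at the new sites than at TEAD peaks in general in every liver. Of the 719 sites with Myc in tet-Myc/YAP, 547 (76.1%) had it in tet-Myc too, against 89.7% over all tet-YAP TEAD peaks.

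RNA polymerase II was found at 536 sites in the wild-type liver (29.7%, 27.7 to 31.9, background 46.3%), 824 in tet-Myc (45.7%, background 64%), 762 in the tet-YAP liver (42.3%, 40 to 44.6, background 54.5%) and 799 in tet-Myc/YAP (44.3%, background 59.6%). The wild-type library had the fewest tags (20.9 M, against 50.6, 37.7 and 45.8 M), and the part of depth in its lower share was not tested. The polymerase was gained over wild-type at 257 new sites in tet-YAP (14.3%, background 10.8%), 310 in tet-Myc (17.2%, background 18.8%) and 311 in tet-Myc/YAP (17.3%, background 15.8%). Only a peak without wild-type polymerase can gain it, and a larger share of the new sites than of all TEAD peaks lacked it. These gain shares can therefore not be read as an excess over the background. H3K4me3 was present at 678 sites in the wild-type liver (background 54.3%), 594 in tet-Myc (33%, background 50.4%), 633 in the tet-YAP liver (35.1%, background 47.5%) and 661 in tet-Myc/YAP (36.7%, background 52.8%). Relative to wild-type it was gained at 48 new sites in the tet-YAP liver (2.66%, 2.01 to 3.51, background 1.13%) and lost at 93 (5.16%, against 7.94% over all peaks). In tet-Myc/YAP it was gained at 79 (4.38%, background 3.41%) and lost at 96 (5.33%, against 4.93%), and in tet-Myc gained at 21 (1.17%, background 1.66%) and lost at 105 (5.83%, against 5.55%). Losses thus outnumbered gains in each of the 3 genotypes. The gain shares in both YAP livers were above their backgrounds, but a larger share of the new sites lacked wild-type H3K4me3 and could gain it. The peaks of tet-YAP alone gained it in tet-YAP at 2.73% (1.96 to 3.79), so that gain was not particular to the new sites.

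**Figure D5:**
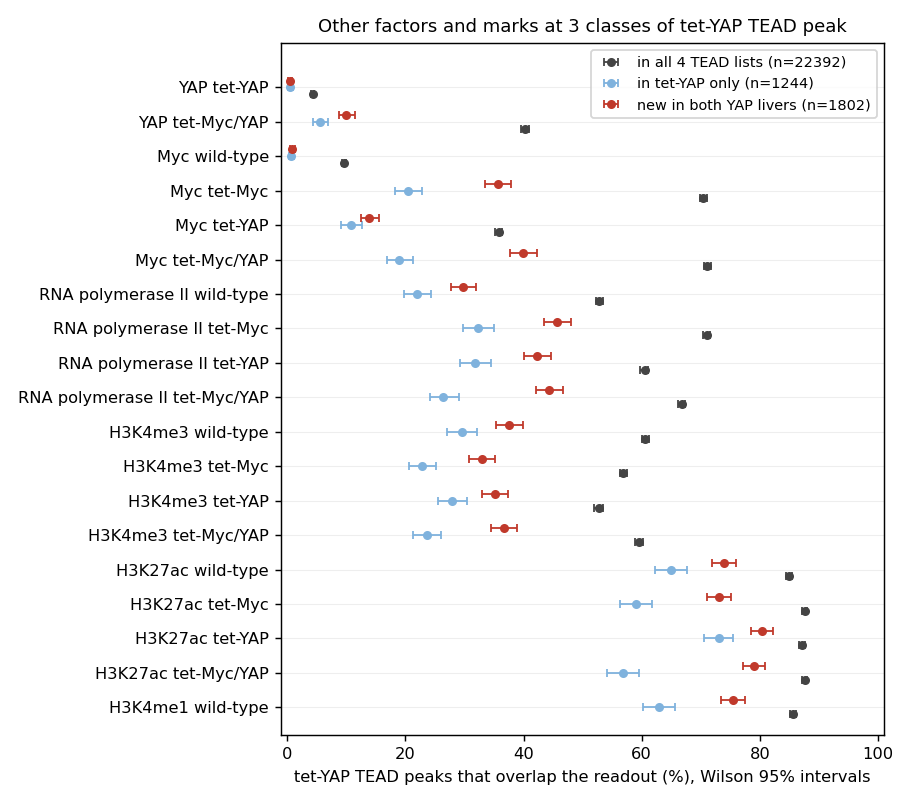
Share of tet-YAP TEAD peaks that overlap each of the 19 other lists (x axis, percent, with Wilson 95% intervals; y axis, list), for the new sites, the peaks of tet-YAP alone and the peaks of all 4 TEAD lists. The new sites lie at or above the peaks of tet-YAP alone for nearly every list and below the peaks of all 4 lists for every one, with the narrowest distance among the histone marks for H3K27ac in tet-YAP (80.4% and 87.2%).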

How the data were processed

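Reads from mouse liver had been mapped to the mm9 build, and the submitters' processing notes name BWA 0.6.2, SAMtools and the peak caller MACS2 2.0.9. Each of the 14 narrow lists came from 1 library, at a p-value cutoff of 1.00e-05 per the file headers. The deposited narrow lists hold, per peak, the authors' pileup signal, their ratio to the control (fold enrichment) and −log10 q. The 9 deposited broad lists (H3K4me3, H3K27ac, H3K4me1) give regions with a score whose scale is not stated, which was not used for any reported value, and no source used here gives their depth. Of 24 samples, 23 had a list. The other, titled as an input, was not analysed here.

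Here, lists were compared by overlap of 1 bp or more (numpy 2.4.6, pandas 2.3.3, Python 3.11.15), with code tested on simulated data and checked with bedtools 2.31.1, which gave the same 1802 sites. Wilson intervals came from scipy 1.17.1 and figures from matplotlib 3.10.9. The sites, classes and comparisons were chosen with earlier results of these data known. The comparison with peaks absent from wild-type alone, the classes by tet-Myc/YAP strength, and the shares among peaks without wild-type H3K27ac, were added late. Named sites were the 10 with the highest −log10 q of TEAD in tet-YAP, the 6 with the highest −log10 q of an overlapping tet-YAP YAP peak, the 6 highest by TEAD −log10 q with H3K27ac in both YAP livers only, and the 3 nearest to either side of the overlap limit. Groups of 1 library allowed no test between genotypes. Planned searches for sequence motifs and neighbouring genes were not run, because the reference tables at hand use another build and coordinates were not converted.

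Alternatives were a −log10 q of at least 10, at least 50% of the shorter peak shared, and the summit inside the other peak. Others were a window of 500 bp around the summit, sites with no other TEAD peak within 1 kb, and TEAD lists cut to equal length. The enriched blocks inside the broad regions were added after seeing the data. The −log10 q cutoff was applied to the tet-YAP TEAD peaks and to the YAP, Myc and RNA polymerase II lists. The selection against the other TEAD lists was not run again at that cutoff.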

Additional observations from a re-analysis of the deposited data

How the results depend on the processing

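No paired analysis was possible because each group was 1 library and the labels carry no replicate numbers, and for the same reason no replicate could be left out. Of 100 values under an alternative, 53 stayed within their limit and 47 did not, the limit being the counting interval for a share and 1.5 times for the number of sites. The number was 1318, 1640 and 1723 with no other TEAD peak within 1 kb, with lists of equal length and with 50% of the shorter peak shared. At a −log10 q of at least 10 for the tet-YAP TEAD peak, 789 of the new sites were kept. YAP was then at 0% of them in the tet-YAP liver, since none of their YAP peaks there reached that threshold, and 2.41% in tet-Myc/YAP, H3K27ac at 63.4% in the wild-type liver, 60.2% in tet-Myc, 73.8% in the tet-YAP liver and 71.5% in tet-Myc/YAP, H3K4me3 at 27.4% in wild-type, RNA polymerase II at 16.3% in wild-type and 30.3% in tet-YAP, Myc at 25.5% in tet-Myc/YAP, and no wild-type mark at 28%. With the summit inside the other peak, YAP was at 0.111% and 7.6%, RNA polymerase II at 26.5% and 37.3%, and Myc at 36.1%. With a window of 500 bp around the summit, YAP in tet-Myc/YAP was at 12.5%, RNA polymerase II at 33.4% and 45.1%, and Myc at 42.6%. For the 1318 sites with no other TEAD peak within 1 kb, YAP in tet-Myc/YAP was at 7.66%, H3K27ac at 65.8%, 64.9%, 74.2% and 72.5% in the order above, H3K4me3 at 27.5%, RNA polymerase II at 23.4% and 35.1%, Myc at 32.5% and no mark at 24.4%. With TEAD lists of equal length, which gave 1640 sites, YAP in tet-Myc/YAP was at 13.2%, H3K27ac at 76.3% in the wild-type liver, 77.1% in tet-Myc and 84.6% in tet-Myc/YAP, Myc at 49.1% and no mark at 15.9%. With the enriched blocks inside the broad regions, H3K27ac was at 58.3%, 60.5%, 69.8% and 68.3%, H3K4me3 at 27.5% and no mark at 28.5%. Within blocks, sites of −log10 q of 20 or more had H3K27ac at 25.5%, 19.9%, 54.6% and 56%. For all new sites, the share of H3K27ac was higher in each YAP liver than in wild-type and tet-Myc under every alternative run. The same held for the strong sites under each alternative except a −log10 q of at least 10, where they were not assessed separately. Depth was not varied, and the calls of weak sites and of the short peaks in the tet-YAP YAP list depend on the authors' cutoffs.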
